A study of Arabidopsis thaliana with 12 samples.

Results

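The 10 genes described here encode the enzymes that build the core of the methionine-derived aliphatic glucosinolates (AGS) and oxidize their side chain. They were taken by gene identifier, in pathway order, from the 27371 genes of the deposited tables: *CYP79F1*, *CYP79F2*, *CYP83A1*, *GSTF11*, *GSTU20*, *SUR1*, *UGT74C1*, *SOT17*, *SOT18* and *FMOGSOX1*. All 10 were listed and all 10 passed the minimum mean of 1 FPKM (a level corrected for transcript length and for the mapped fragments of each library), among 16677 genes that did. The study asked how loss of *LINC1*, the gene of a lamin-like nuclear protein, alters immunity. It measured mRNA from whole *Arabidopsis thaliana* seedlings, 14 days old and grown at 23 °C in long days on plates without sugar. The wild type (WT) was Col-0. The line *linc1-1* (SALK_025347) carries a T-DNA insertion in *LINC1* in the same background, and is a single insertion line, so other differences that it may carry cannot be told apart from the loss of *LINC1*. Seedlings of each line were either controls, called mock here after the study (the labels do not say what the controls received), or sprayed with *Pst hrcC*-, a *Pseudomonas syringae* strain that lacks a working type III secretion system, at an OD600 of 0.002 for 24 hours. This gave 4 groups of 3 libraries, described by the study as biological replicates. Shoot and root were not separated, so a change in the share of a tissue and a change in RNA per cell cannot be told apart.

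Glucosinolates are sulfur-rich defence compounds of the cabbage order, and are best known for the toxic products that myrosinases release from them when tissue is damaged. In the aliphatic branch, methionine is first lengthened, its amino group is then turned into an oxime, and the oxime is joined to a sulfur donor, cleaved to a thiohydroximate, glucosylated and sulfated. Side chain enzymes oxidize the finished molecule. The branch is switched on by the transcription factors MYB28, MYB29 and MYB76, which act with the jasmonate-linked factors MYC2, MYC3 and MYC4.

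The files give no counts, so the depth of the libraries is unknown. *LINC1* itself ranged from 17.2 to 28.3 FPKM over the 6 WT libraries, and from 2.09 to 3.76 FPKM over those of *linc1-1*, as each label says. The tissue label was borne out by 18 photosynthesis genes, which summed to 31390 to 72900 FPKM per library, and 11 root genes, which summed to 126.5 to 338.2 FPKM. The first replicate of each WT group stood apart from the other 2 in the 10 AGS genes. WT mock replicate 1 exceeded the mean of WT mock replicates 2 and 3 in each of the 10, by 1.43-fold (*SOT18*) to 28.4-fold (*GSTU20*). WT *Pst hrcC*- replicate 1 did so by 1.44-fold (*SOT18*) to 8.19-fold (*GSTU20*). The share of all genes that did so was not computed, but the effect of these libraries was not confined to the 10. Of all genes, 0.018% passed the test (limma) as higher in *linc1-1* mock than in WT mock. Without both WT replicate 1 libraries, 6.03% did. The photosynthesis genes moved in the same way as a set, though not each of them. They summed to 72900 FPKM in WT mock replicate 1 against 39720 and 47170 in replicates 2 and 3. In WT *Pst hrcC*- replicate 1 they summed to 69530 FPKM against 43260 and 31390. Their median log2(FPKM + 1) was 11.36 against 10.37 and 10.45 in WT mock, and 10.94 against 10.34 and 9.913 in WT *Pst hrcC*-. *LHCB1.3*, the most abundant of them elsewhere, was listed at 0 in *linc1-1* mock replicate 3 and *linc1-1* *Pst hrcC*- replicate 1. The sums of these libraries, 41590 and 40920 FPKM, thus lack it. In WT *Pst hrcC*- replicate 1 the clock genes summed to 89.68 FPKM, and to 260.4 to 330.5 in the other 11 libraries. This sum pools genes that moved in opposite ways. In WT *Pst hrcC*- replicates 1 to 3, *CCA1* was at 18.6, 0.827 and 0.411 FPKM and *TOC1* at 5.74, 84.0 and 75.0. In WT mock, *CCA1* was at 2.075, 0.732 and 0.662 FPKM and *TOC1* at 32.4, 85.0 and 96.6. The part of these differences in the AGS values was not tested, and calls that rest on the WT libraries are given with and without both WT replicate 1 libraries. These 2 libraries were the highest of their group in each of the 10 genes. Leaving them out therefore lowers the WT means and raises each difference between *linc1-1* and WT in these genes. The labels give no batch or date.

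The study measured *CYP79F1* and *CYP79F2* by qRT-PCR as well, and its primers are shown because they mark where these near-identical neighbours can be told apart. In TAIR10.1 *CYP79F1* (AT1G16410) lies at chr1:5608682-5612064 and *CYP79F2* (AT1G16400) at chr1:5605044-5607498, both on the plus strand. Their coding sequences were 90.7% identical, with a longest identical run of 100 bases. Each primer matched the transcripts of 1 gene exactly, and capitals mark the bases that differ from the best ungapped match in the other gene, 5 and 3 for the *CYP79F1* pair and 4 and 3 for the *CYP79F2* pair.
CYP79F1 forward, exon 2, plus strand, chr1:5610158-5610178: tatgtcccTTcCcatCttgcG
CYP79F1 reverse, exon 3, minus strand, chr1:5610770-5610789: ggttAcgAcctagTccaggg
CYP79F2 forward, exon 2, plus strand, chr1:5606582-5606601: gCgctcattatgtcccACcT
CYP79F2 reverse, exon 3, minus strand, chr1:5606939-5606958: ttttagggttCcgGcctagC
In stretches of 100 bases, 1 of 2644 in the *CYP79F1* transcript and 1 of 1919 in that of *CYP79F2* was shared with the other gene. Shorter reads could be shared more often, so the split between the 2 genes carries that uncertainty.

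The sequence before the gene start is shown for 4 genes, picked from those whose windows hold letters that factors of the branch can bind. Capitals mark CACGTG (the G-box) or AACGTG (both bound by MYC2 and related factors) and ACCTACC (an AC element, of a kind bound by many R2R3-MYB factors), searched on both strands in the 250 bases before each gene start of the TAIR10.1 annotation. Each line reads 5′ to 3′ on the strand of its gene.
CYP83A1, minus strand, chr4:7992430-7992679: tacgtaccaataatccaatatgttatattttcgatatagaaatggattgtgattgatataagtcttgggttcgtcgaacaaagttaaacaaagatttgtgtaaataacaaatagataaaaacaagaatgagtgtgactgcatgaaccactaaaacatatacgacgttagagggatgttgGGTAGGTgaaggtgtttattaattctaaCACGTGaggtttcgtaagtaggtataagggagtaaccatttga
GSTF11, plus strand, chr3:734642-734891: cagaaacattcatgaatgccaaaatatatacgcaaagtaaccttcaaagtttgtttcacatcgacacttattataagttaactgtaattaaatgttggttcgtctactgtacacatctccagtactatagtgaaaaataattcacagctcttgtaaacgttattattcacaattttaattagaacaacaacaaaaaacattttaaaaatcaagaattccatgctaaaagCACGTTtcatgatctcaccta
SUR1, minus strand, chr2:8880441-8880690: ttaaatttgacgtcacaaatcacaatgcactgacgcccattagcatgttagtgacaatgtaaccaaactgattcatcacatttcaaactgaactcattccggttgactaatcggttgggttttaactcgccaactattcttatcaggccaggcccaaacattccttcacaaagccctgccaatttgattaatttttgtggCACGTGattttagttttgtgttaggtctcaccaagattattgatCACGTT
FMOGSOX1, minus strand, chr1:24502777-24503026: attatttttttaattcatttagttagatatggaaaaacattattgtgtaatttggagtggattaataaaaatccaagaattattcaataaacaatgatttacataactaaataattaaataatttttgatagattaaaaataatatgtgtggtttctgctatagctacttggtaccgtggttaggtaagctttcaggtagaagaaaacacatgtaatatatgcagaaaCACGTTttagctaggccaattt
CACGTG was found in 2 of the 10 windows (*CYP83A1* and *SUR1*) and in 6.49% of 27443 windows of all genes. AACGTG, which reads CACGTT on the other strand, was found in 5 (*CYP79F2*, *GSTF11*, *SUR1*, *SOT17* and *FMOGSOX1*) and in 7.54% of all windows. ACCTACC was found in 2 (*CYP79F2* and *CYP83A1*) and in 1.16%, and ACCAACC, another AC element, in 1 (*SOT17*) and in 2.69%. No match was found in the windows of *CYP79F1*, *GSTU20*, *UGT74C1* and *SOT18*. The matches are of letters, not binding sites, and their part in the FPKM values was not tested.

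After *Pst hrcC*-, the summed FPKM of the AGS enzymes stood highest in *linc1-1*. The 10 genes together summed to 37.1 to 278.7 FPKM in WT mock, 102.3 to 338.9 in WT *Pst hrcC*-, 82.3 to 129.9 in *linc1-1* mock and 379.3 to 486.1 in *linc1-1* *Pst hrcC*-. Abundant genes weigh most in the sum, and *GSTU20* gave 136.3 of the 338.9 FPKM in WT *Pst hrcC*- replicate 1. The median log2(FPKM + 1) of the 10 was 4.296 in that library, beside 4.289 to 4.642 in *linc1-1* *Pst hrcC*-. Of the 12 libraries, *linc1-1* *Pst hrcC*- replicates 2 and 3 each held the highest value of 5 genes. WT mock replicates 2 and 3 were among the lowest 3 libraries for each of the 10.

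**Figure D1:**
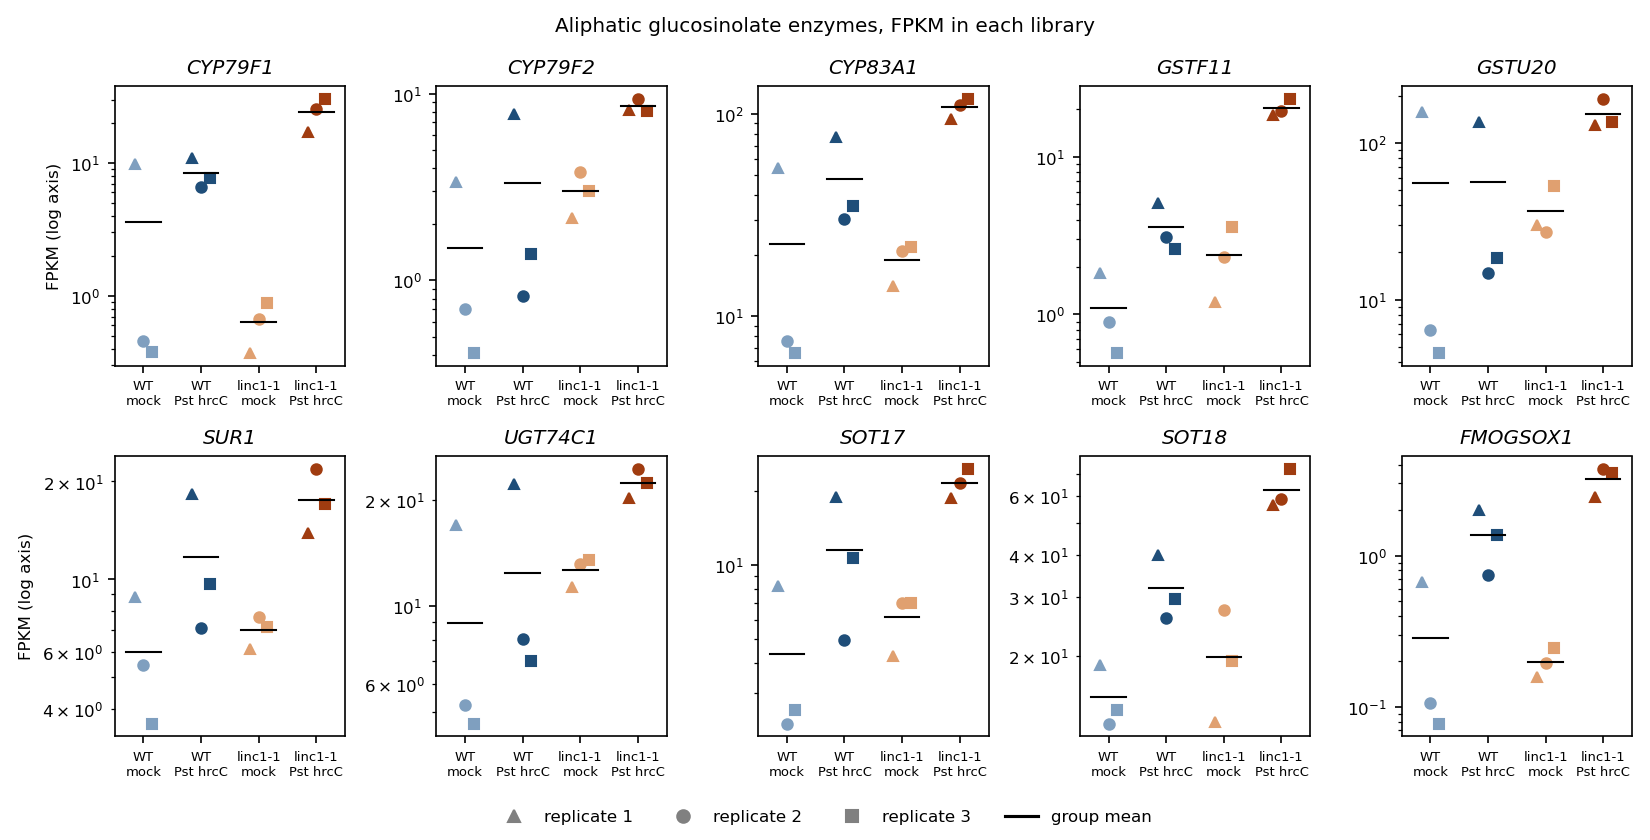
FPKM (log axis) of the 10 genes in each of the 12 libraries, by group on the horizontal axis, with the marker shape giving the replicate number and a black line the group mean. The 3 *linc1-1* *Pst hrcC*- libraries lie above the 3 *linc1-1* mock libraries in all 10 panels, and the WT replicate 1 libraries (triangles) lie above the other WT libraries of their treatment.

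The pathway begins with CYP79F1 and CYP79F2, cytochrome P450 enzymes that turn chain-elongated methionine into aldoximes, CYP79F1 for short and long chains and CYP79F2 for long ones. *CYP79F1* was listed at 9.86, 0.461 and 0.377 FPKM in WT mock replicates 1 to 3, at 10.99, 6.56 and 7.70 in WT *Pst hrcC*-, at 0.372, 0.665 and 0.882 in *linc1-1* mock and at 17.0, 25.3 and 30.4 in *linc1-1* *Pst hrcC*-. It was thus below 1 FPKM in 5 of the 6 mock libraries, WT replicate 1 being the exception, and the 3 *linc1-1* *Pst hrcC*- libraries were the highest of the 12. *CYP79F1* rose in *linc1-1* by 3.92 on the log2(FPKM + 1) scale (SE 0.63, adjusted p = 0.0196 from limma), the largest change of the 10, from a mean of 0.640 to 24.3 FPKM.

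*CYP79F2* was listed at 3.38, 0.704 and 0.409 FPKM in WT mock, at 7.74, 0.825 and 1.39 in WT *Pst hrcC*-, at 2.17, 3.81 and 3.03 in *linc1-1* mock and at 8.13, 9.38 and 8.05 in *linc1-1* *Pst hrcC*-. After *Pst hrcC*- the *linc1-1* libraries lay above the 3 WT libraries, of which replicate 1 came close to them. Its difference in *linc1-1* between *Pst hrcC*- and mock was 1.27 on the log2 scale (SE 0.54, adjusted p = 1 from limma).

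The balance of the pair differed between the groups. FPKM of *CYP79F1* relative to *CYP79F2*, both scaled for transcript length, was 0.171, 0.174 and 0.292 in *linc1-1* mock and 2.096, 2.70 and 3.78 in *linc1-1* *Pst hrcC*-. In WT it was 2.92, 0.655 and 0.922 in mock and 1.42, 7.95 and 5.54 after *Pst hrcC*-. *CYP79F2* was thus the more abundant of the 2 in each *linc1-1* mock library, and *CYP79F1* in each library treated with *Pst hrcC*-. The WT groups overlapped in this ratio through their replicate 1 libraries, and no test was made of it.

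**Figure D2:**
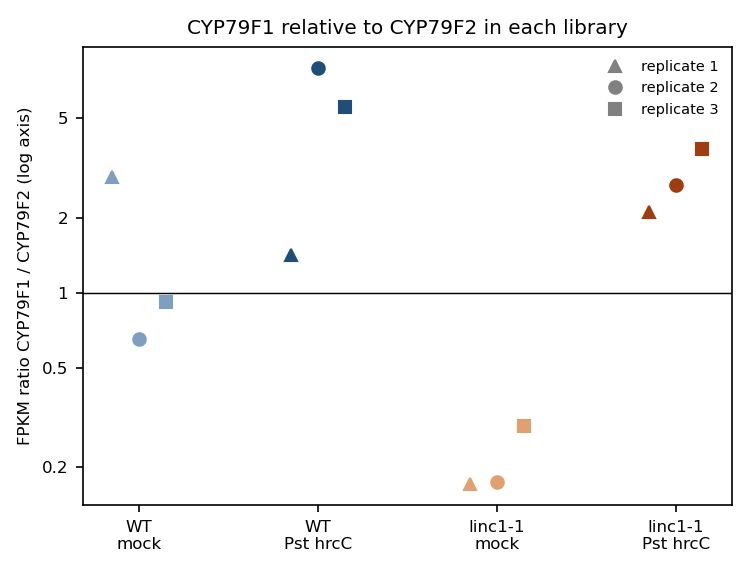
Ratio of *CYP79F1* to *CYP79F2* FPKM (log axis) in each of the 12 libraries, by group, with the marker shape giving the replicate number and a line at equal levels. The *linc1-1* mock libraries lie at 0.171 to 0.292, below the 9 others, and the 6 *Pst hrcC*- libraries lie above the line.

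CYP83A1, the next cytochrome P450, activates the aldoximes (AT4G13770, chr4:7990429-7992429, minus strand). *CYP83A1* was listed at 54.2, 7.57 and 6.57 FPKM in WT mock, at 77.5, 30.3 and 35.2 in WT *Pst hrcC*-, at 14.2, 21.1 and 21.9 in *linc1-1* mock and at 94.4, 111 and 119 in *linc1-1* *Pst hrcC*-. The *linc1-1* *Pst hrcC*- libraries were the 3 highest of the 12. The difference in *linc1-1* between treatments was 2.46 on the log2 scale (SE 0.64, adjusted p = 0.225 from limma) and did not pass. Without both WT replicate 1 libraries the SE was 0.18 and the adjusted p 0.000295.

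GSTF11 and GSTU20 are glutathione transferases assigned to the step that joins the activated oxime to glutathione. *GSTF11* (AT3G03190, chr3:734892-735987, plus strand) was listed at 1.84, 0.896 and 0.569 FPKM in WT mock, at 5.06, 3.09 and 2.59 in WT *Pst hrcC*-, at 1.20, 2.31 and 3.60 in *linc1-1* mock and at 18.4, 19.4 and 23.4 in *linc1-1* *Pst hrcC*-. Each *linc1-1* *Pst hrcC*- value was above each of the 9 others by more than 3-fold. *GSTF11* rose in *linc1-1* by 2.72 on the log2 scale (SE 0.30, adjusted p = 0.00223 from limma), from a mean of 2.37 to 20.4 FPKM. The gene lies wholly, over 1096 bp, within the annotated span of *NAC045* (AT3G03200) on the opposite strand, and 82.4% of its 100-base stretches also match an exon of that gene. *NAC045* was listed at 0 to 0.384 FPKM. The library kit marks strand, but use of the strand in computing FPKM is not given in the sources used here.

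*GSTU20* (AT1G78370, chr1:29484120-29485389, minus strand) had the highest mean of the 10, 75.2 FPKM. It was listed at 156.0, 6.43 and 4.56 FPKM in WT mock, at 136.3, 14.8 and 18.5 in WT *Pst hrcC*-, at 29.9, 26.8 and 53.2 in *linc1-1* mock and at 129, 191 and 136 in *linc1-1* *Pst hrcC*-. The WT replicate 1 libraries were here at the level of *linc1-1* *Pst hrcC*- seedlings, with or without bacteria. Its difference in *linc1-1* between treatments was 2.07 on the log2 scale (SE 1.13, adjusted p = 1 from limma), with the largest SE of the 10.

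SUR1, the C-S lyase, releases the thiohydroximate and serves the indole branch too. *SUR1* (AT2G20610, chr2:8877887-8880440, minus strand) was listed at 8.83, 5.48 and 3.61 FPKM in WT mock, at 18.3, 7.09 and 9.68 in WT *Pst hrcC*-, at 6.11, 7.69 and 7.12 in *linc1-1* mock and at 13.9, 21.8 and 17.1 in *linc1-1* *Pst hrcC*-. The glucosyltransferase gene *UGT74C1* (AT2G31790, chr2:13518199-13520364, plus strand) was listed at 17.0, 5.23 and 4.64 FPKM in WT mock, at 22.1, 8.05 and 6.99 in WT *Pst hrcC*-, at 11.4, 13.2 and 13.5 in *linc1-1* mock and at 20.3, 24.5 and 22.4 in *linc1-1* *Pst hrcC*-. In both genes *linc1-1* *Pst hrcC*- overlapped with WT *Pst hrcC*- through WT replicate 1 alone. Their differences in *linc1-1* between treatments were 1.21 (SE 0.34, adjusted p = 0.304) and 0.77 (SE 0.46, adjusted p = 1 from limma), and *UGT74C1* had the smallest of the 10.

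SOT17 and SOT18 are sulfotransferases that add the sulfate to desulfoglucosinolates of this branch. *SOT17* (AT1G18590, chr1:6398531-6400029, plus strand) was listed at 8.19, 2.26 and 2.56 FPKM in WT mock, at 19.0, 4.94 and 10.7 in WT *Pst hrcC*-, at 4.27, 7.04 and 7.04 in *linc1-1* mock and at 18.7, 21.7 and 24.6 in *linc1-1* *Pst hrcC*-. *SOT18* (AT1G74090, chr1:27862814-27864193, plus strand) was listed at 18.8, 12.5 and 13.8 FPKM in WT mock, at 40.0, 26.0 and 29.6 in WT *Pst hrcC*-, at 12.7, 27.5 and 19.4 in *linc1-1* mock and at 56.7, 58.9 and 72.4 in *linc1-1* *Pst hrcC*-. *SOT18* had the least gap between WT replicate 1 and the other WT libraries of the 10, and in each line the treated libraries lay above the mock libraries. *SOT18* rose in *linc1-1* by 1.67 on the log2 scale (SE 0.28, adjusted p = 0.0224 from limma), and the difference of *SOT17* was close to it, 1.69, with a larger SE of 0.46 (adjusted p = 0.261).

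FMOGSOX1, a flavin-dependent monooxygenase, turns methylthioalkyl side chains into methylsulfinylalkyl ones. *FMOGSOX1* (AT1G65860, chr1:24498954-24502776, minus strand) was the least abundant of the 10, with a mean of 1.27 FPKM. It was listed at 0.670, 0.107 and 0.0776 FPKM in WT mock, at 2.02, 0.741 and 1.38 in WT *Pst hrcC*-, at 0.158, 0.194 and 0.246 in *linc1-1* mock and at 2.45, 3.72 and 3.498 in *linc1-1* *Pst hrcC*-. The treated libraries of each line lay above its mock libraries. *FMOGSOX1* rose in *linc1-1* by 1.80 on the log2 scale (SE 0.24, adjusted p = 0.00663 from limma), which understates the change of so low a gene, as the means were 0.199 and 3.22 FPKM.

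In *linc1-1*, 4 of the 10 genes rose after *Pst hrcC*- at the oxime, conjugation, sulfation and side chain steps: *CYP79F1*, *GSTF11*, *SOT18* and *FMOGSOX1*. The threshold for a call was a fold above 1.5 with an adjusted p, taken over all genes tested, under 0.05. Of all genes tested, 0.606% were called higher in this comparison. At an unadjusted p under 0.05 and the same fold, 8 of the 10 were higher, all but *GSTU20* and *UGT74C1*, and 2.79% of all genes. The *linc1-1* groups did not overlap in any of the 10, against 7.45% of all genes. The median of the 10 log2 differences was 1.75, and that of all genes 0.02. On the FPKM scale the ratio of group means ran from 1.76 (*UGT74C1*) to 37.9 (*CYP79F1*). The calls depended on the libraries: *GSTF11* and *FMOGSOX1* were called with any 1 of the 12 libraries left out, *CYP79F1* was lost without any 1 of the 6 *linc1-1* libraries (adjusted p up to 0.121), and *SOT18* without *linc1-1* mock replicate 1 or 3 or any *linc1-1* *Pst hrcC*- replicate (adjusted p up to 0.127). With both WT replicate 1 libraries out, which leaves the *linc1-1* values as they were but lowers the shared estimate of the spread, 10 of 10 were called, against 1.26% of all genes.

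In WT, the 10 genes also lay higher after *Pst hrcC*- than in mock on average, and none was called by limma, against 0.18% of all genes. The 10 log2 differences ran from 0.47 (*UGT74C1*) to 1.72 (*CYP79F1*), with a median of 0.97 against -0.09 over all genes. At an unadjusted p under 0.05, 7 of the 10 were higher, all but *CYP79F2*, *GSTU20* and *UGT74C1*, and 2.16% of all genes. The groups did not overlap in 3 (*GSTF11*, *SOT18* and *FMOGSOX1*), against 2.9% of all genes. Without both WT replicate 1 libraries, *CYP79F1* (log2 difference 2.51, SE 0.25) and *CYP83A1* (2.06, SE 0.22) were called, each at an adjusted p of 0.0153 from limma, against 0.168% of all genes. The groups of 2 WT libraries then did not overlap in any of the 10, against 13.3% of all genes.

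**Figure D3:**
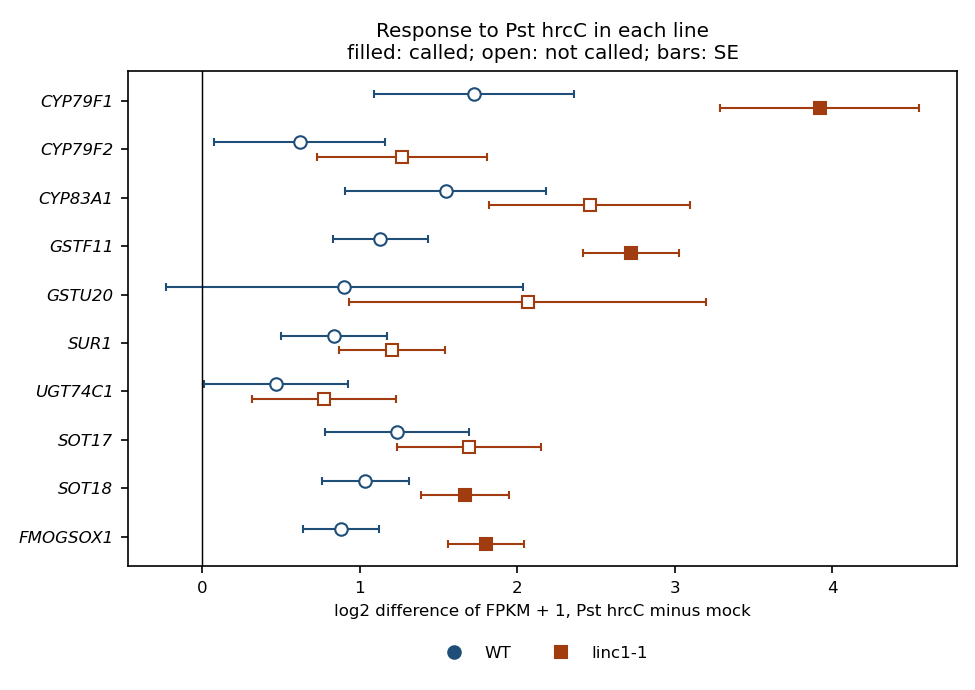
Difference between *Pst hrcC*- and mock seedlings on the log2(FPKM + 1) scale for the 10 genes in WT (blue circles) and *linc1-1* (brown squares), with the SE of the fit as bars and filled symbols for called genes. The *linc1-1* value is the higher of the pair in each gene, and the filled symbols are *CYP79F1*, *GSTF11*, *SOT18* and *FMOGSOX1* in *linc1-1*.

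Whether the 2 responses differ was tested as the difference of the differences. It was positive for each of the 10, with a median of 0.78 against 0.12 over all genes, and none was called by limma, against 0% of all genes. At an unadjusted p under 0.05, 3 of the 10 were higher and 1.38% of all genes: *CYP79F1* (2.196, SE 0.90), *GSTF11* (1.59, SE 0.43) and *FMOGSOX1* (0.92, SE 0.34), each at an adjusted p of 1.00. A stronger response in *linc1-1* was thus not shown for any of the 10. Without WT mock replicate 1 the median was 0.12, and without both WT replicate 1 libraries 0.63, with none called.

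Between the lines after *Pst hrcC*-, the values of *linc1-1* were higher in each of the 10 genes, and the difference passed the test in *GSTF11*. Whether the tables of the 2 lines were scaled together is not given in the sources used here, and rescaling them by size factors or quantiles left the call as it was. *GSTF11* was 2.25 higher on the log2 scale (SE 0.30, adjusted p = 0.0123 from limma), against 0.174% of all genes called higher. The other 9 ran from 0.63 (*SUR1*) to 2.11 (*GSTU20*). The median of the 10 was 1.15, and 0.14 over all genes. At an unadjusted p under 0.05, 6 of the 10 were higher, *GSTF11* with *CYP79F1*, *CYP79F2*, *SOT17*, *SOT18* and *FMOGSOX1*, and 6.61% of all genes. The lines did not overlap in 6, *GSTF11* with *CYP79F1*, *CYP79F2*, *CYP83A1*, *SOT18* and *FMOGSOX1*, against 14.9% of all genes. The call of *GSTF11* was lost without WT *Pst hrcC*- replicate 3 or any *linc1-1* *Pst hrcC*- replicate (adjusted p up to 0.0822).

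The 3 WT libraries differed among themselves in this comparison. WT *Pst hrcC*- replicates 2 and 3 lay below all 3 *linc1-1* libraries in 10 of 10 genes. WT *Pst hrcC*- replicate 1 lay below them in 6 and within their range in 4, positions for which the share of all genes was not computed. Without both WT replicate 1 libraries, 10 of 10 genes were called higher in *linc1-1* by limma, from 0.98 for *SUR1* (SE 0.22, adjusted p = 0.0178) to 3.10 for *GSTU20* (SE 0.30, adjusted p = 0.000996). The libraries left out were the highest WT libraries of their treatment in each of the 10, which by itself favours such calls. The count is thus not a separate test of the difference between the lines. In that fit 11.4% of all genes were called higher, and the lines did not overlap in 10 of 10 against 32.2% of all genes. The photosynthesis genes moved with it: 10 of 18 were called higher, with a median of 0.99, and 0 of 18 with all libraries, with a median of 0.37. Their part in the AGS values was not tested.

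**Figure D4:**
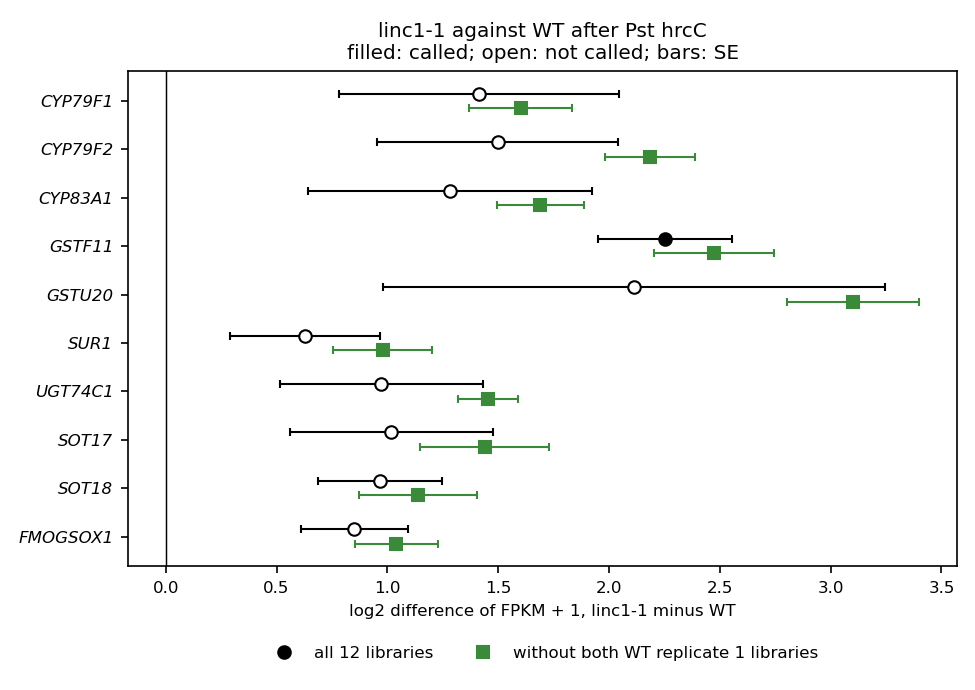
Difference between *linc1-1* and WT seedlings treated with *Pst hrcC*- on the log2(FPKM + 1) scale for the 10 genes, with all 12 libraries (black circles) and without both WT replicate 1 libraries (green squares), with the SE of the fit as bars and filled symbols for called genes. All 20 values lie above 0, and with all 12 libraries the filled symbol is *GSTF11*.

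In mock seedlings, none of the 10 genes was called between the lines by limma, against 0.018% of all genes called higher, and none passed at an unadjusted p under 0.05, against 1.8%. *CYP79F1* (-0.78, SE 0.63) and *FMOGSOX1* (-0.07, SE 0.24) were below 0 and the other 8 above, up to 0.95 for *GSTU20* (SE 1.13), with a median of 0.46. WT mock replicate 1 lay above all 3 *linc1-1* mock libraries in 7 genes and within their range in 3. WT mock replicates 2 and 3 lay below them in 9 and 8 genes. The share of all genes was not computed for single WT libraries. The *linc1-1* libraries lay wholly above WT in 0 of the 10, against 7.08% of all genes. Without both WT replicate 1 libraries the direction of *CYP79F1* was 0.20 (SE 0.23) and that of *FMOGSOX1* 0.13 (SE 0.19). In that fit *CYP79F2* (1.35), *CYP83A1* (1.29), *GSTU20* (2.48) and *UGT74C1* (1.20) were called higher in *linc1-1* by limma, with adjusted p of 0.00338 to 0.00730, and 6.03% of all genes. The lines then did not overlap in 8 of the 10, against 28.1% of all genes. Here too, leaving out the highest WT mock library of each gene by itself favours such calls. The photosynthesis genes again moved with it, with 4 of 18 called higher and a median of 0.59.

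The 10 genes varied together. Pearson's r of log2(FPKM + 1) over the 12 libraries was between 0.695 (*CYP79F1* and *UGT74C1*) and 0.973 (*GSTU20* and *UGT74C1*) for the 45 pairs, with a median of 0.878, given as a description since all pairs share libraries and groups. The 6 tested genes outside the list whose profile was most like the mean of the 10 were the chain elongation genes *IPMI1* (AT3G58990, r = 0.993) and *BCAT4* (r = 0.969), the aspartate kinase gene *AK3* (r = 0.967), the regulator *MYB29* (r = 0.966), the glutathione transferase gene *GSTF9* (r = 0.962) and AT1G06000 (r = 0.956). *IPMI1* had group means of 5.83 FPKM in WT mock, 20.6 in WT *Pst hrcC*-, 7.64 in *linc1-1* mock and 49.4 in *linc1-1* *Pst hrcC*-. *AK3*, whose enzyme acts at the start of methionine synthesis, had 1.18, 2.81, 1.24 and 12.3 FPKM.

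The genes around the 10 in the pathway were read from fixed lists. Of 10 genes listed for the chain elongation of methionine, 10 were positive in *linc1-1* after *Pst hrcC*-, with a median log2 difference of 2.01. Beside them, 9230 of the 16677 genes tested were positive, with a median of 0.02. Of the 10, 2 were called higher by limma, against 0.606% of all genes: *BCAT4*, the aminotransferase of the first step (3.03, SE 0.50, adjusted p = 0.0225), and *MAM1*, a methylthioalkylmalate synthase (2.18, SE 0.42, adjusted p = 0.0474). *BCAT4* went from 2.07, 1.97 and 3.61 FPKM in *linc1-1* mock to 24.8, 33.0 and 24.9. Of 10 other core and side chain genes 7 were tested and 1 was called, *GGP1*, which trims the glutathione conjugate between the GST and SUR1 steps (1.65, SE 0.28, adjusted p = 0.0253). Of 6 genes of the indole core, 1 was called, *CYP79B3*, which makes the oxime of tryptophan (1.65, SE 0.26, adjusted p = 0.0174). With all 12 libraries, none of these lists had a gene called in WT after *Pst hrcC*- or between the lines. When both WT replicate 1 libraries were left out, 6 chain elongation genes, 4 of the other core and side chain genes and 4 of the indole core were called higher in *linc1-1* after *Pst hrcC*-, against 1.26% of all genes. In WT, 2 chain elongation genes were then called, against 0.168% of all genes, and none of the other lists. Between the mock groups 4 chain elongation genes were, against 6.03%, and none of the others.

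Between the lines after *Pst hrcC*-, the median was 1.25 for chain elongation genes, 0.08 for the other core and side chain genes and 0.39 for the indole core, beside 1.15 for the 10 AGS enzymes. These medians, without both WT replicate 1 libraries, were 1.74, 0.20 and 0.56, beside 1.53, with 7, 2 and 1 genes of the 3 lists called higher in *linc1-1*, against 11.4% of all genes. With all 12 libraries, the largest difference in each list was that of the isopropylmalate dehydrogenase gene *IPMDH1* (AT5G14200, *IMD1* in RefSeq, 1.74, adjusted p = 0.238), *FMOGSOX3* (1.59, adjusted p = 0.120) and *GSTF9* (0.77, adjusted p = 0.313 from limma). Among the regulators it was *MYB28* (1.24, SE 0.26, adjusted p = 0.0701), listed at 15.6, 8.21 and 8.34 FPKM in WT and at 22.6, 28.6 and 25.8 in *linc1-1*. *MYB28* was at 14.3, 17.8 and 20.5 FPKM in *linc1-1* mock. The AGS enzymes summed to 82.3 to 129.9 FPKM in *linc1-1* mock, and to 338.9, 102.3 and 123.7 in WT *Pst hrcC*- replicates 1 to 3. The part of *MYB28* in the level of the enzymes was not tested. Both *MYB28* and *MYB29*, without the WT replicate 1 libraries, were called higher in *linc1-1* after *Pst hrcC*-, with a median of 1.53, and 1 of the 2 in mock seedlings. *MYB76* was below the minimum mean and not tested. It was listed at 2.02, 3.34 and 3.39 FPKM in *linc1-1* *Pst hrcC*-, at 0.286, 1.05 and 1.02 in WT *Pst hrcC*- and at 0 to 0.310 in the mock libraries.

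**Figure D5:**
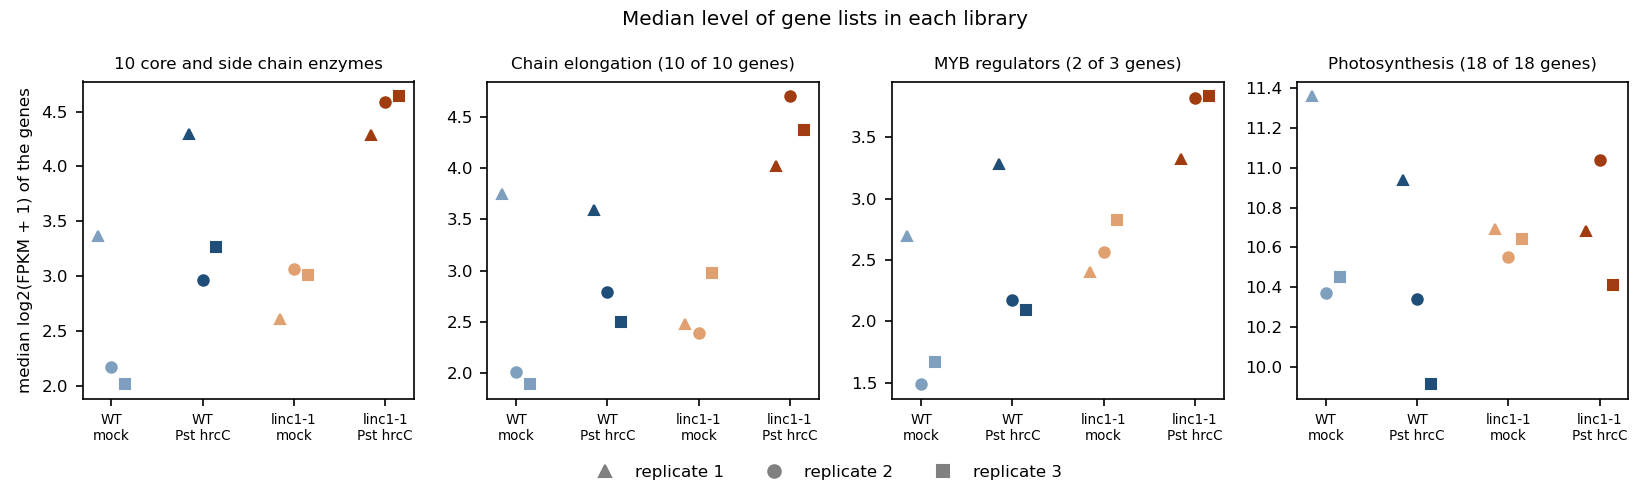
Median log2(FPKM + 1) of the 10 AGS enzymes, the 10 chain elongation genes, *MYB28* with *MYB29*, and 18 photosynthesis genes in each of the 12 libraries, by group, with the marker shape giving the replicate number and a scale for each panel. The 3 *linc1-1* *Pst hrcC*- libraries are at 4.29 to 4.64 for the AGS enzymes, and WT *Pst hrcC*- replicate 1 is at 4.30 beside 2.97 and 3.27, while for photosynthesis genes WT mock replicate 1 is the highest library at 11.4.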

How the data were processed

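The authors prepared stranded mRNA libraries from whole seedlings, sequenced them as paired ends, mapped the reads to TAIR10 with TopHat2 (2.1.1 per the labels) and computed the deposited FPKM values with Cufflinks (2.2.1 per the labels). The FPKM values came in 2 tables of 27371 genes, 1 per line. Neither counts nor errors are in them, so the depth is unknown, counting intervals could not be given, and the authors' own test on reads was not rerun. FPKM sums ranged from 904687 to 7037670 per library. Groups came from the line, treatment and replicate number in the labels.

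Tests were made on log2(FPKM + 1), for genes whose mean reached 1 FPKM over the 12 libraries, with limma (3.58.1, R 4.3.3), as 4 groups in a single fit with a variance trend, and 5 contrasts. Benjamini-Hochberg adjustment was made over the 16677 genes of each contrast, with a call at a fold above 1.5 and an adjusted p under 0.05. The tests are two-sided. The fit was tried on simulated data with independent noise for each gene and library. These held no shift shared by the genes of a library, so they cannot show how the fit handles the WT replicate 1 libraries. Identifiers were matched to the TAIR10.1 RefSeq annotation (26703 of 27371 found), which gave positions and the genome sequence. Primers are the study's. Alternatives were other pseudocounts (0.1 and 5 FPKM), minimum means (none and 5 FPKM), scalings, fits and left-out libraries.

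The 10 genes and the pathway lists were chosen with earlier results of these data known. *CYP79F1*, *CYP79F2* and *CYP83A1* were also the study's own choice for qRT-PCR on such seedlings. Named were all 10, the called genes of the other pathway lists, the largest difference of each of these lists between the lines after *Pst hrcC*-, the 6 genes most like the mean z-score of the 10, and *LINC1*. *MYB76*, *CCA1*, *TOC1* and *LHCB1.3* were added after their values were seen. Replicate numbers were not used as pairs: of 18 correlations between the deviations of same-numbered libraries, from -0.209 to 0.448, 4 were above 0.1. The highest was that of the WT mock and WT *Pst hrcC*- replicate 1 libraries, and pairing within WT was not tested apart.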

Additional observations from a re-analysis of the deposited data

How the results depend on the processing

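Pseudocounts, minimum means, size factors and quantile normalization left 0 AGS genes called in WT after *Pst hrcC*-, 3 or 4 in *linc1-1*, and *GSTF11* between the lines after *Pst hrcC*-. Of all genes, 0.0641% to 0.319%, 0.304% to 0.923% and 0.0721% to 0.228% were then called higher. At the minimum mean of 5 FPKM, 8 of the 10 were tested, since *CYP79F2* and *FMOGSOX1* fell below it. The 3 calls in *linc1-1* there are thus of 8, with *FMOGSOX1* untested. The fit on the 2 groups compared called 9 in *linc1-1* after *Pst hrcC*- and 0 between the lines then, with 0.983% and 0.018% of all genes. Library weights called 1 in WT, 8 in *linc1-1*, 6 between the mock groups and 9 between the lines after *Pst hrcC*-, with 0.294%, 1.58%, 6.73% and 5.32% of all genes. Without both WT replicate 1 libraries these counts were 2, 10, 4 and 10, with 0.168%, 1.26%, 6.03% and 11.4% of all genes. With all 12 libraries and an unadjusted p under 0.05 they were 7, 8, 0 and 6, with 2.16%, 2.79%, 1.8% and 6.61%. The difference of the responses then had 3, with 1.38% of all genes. Leaving out 1 library gave 0 to 2 calls in WT, 2 without WT mock replicate 1, with 0.048% to 0.258% of all genes. It gave 2 to 5 in *linc1-1*, with 0.222% to 0.738%. It gave 0 to 2 between the lines after *Pst hrcC*-, 2 without either WT replicate 1 library, with 0.018% to 1.1%. It moved the median difference of the responses from 0.78 to between 0.12, with WT mock replicate 1 left out, and 1.22, with WT *Pst hrcC*- replicate 1 left out. A block for the replicate number lost *SOT18* and left 3 calls in *linc1-1*, with 0 in WT and 1 between the lines after *Pst hrcC*-. Of all genes, 0.558%, 0.144% and 0.054% were then called higher. The block was shared by both lines, so it cannot show pairing within WT, where the replicate 1 libraries had r = 0.448. No called gene changed direction. The cause of these shifts was not tested, other than that the fit with fewer libraries or groups has another estimate of the spread. Depth, which would limit the low values of *CYP79F1*, *CYP79F2* and *FMOGSOX1* in mock seedlings most, is unknown.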
